A study of Mus musculus with 22 samples.

Results

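The 10 endothelial and blood genes Kdr, Pecam1, Cdh5, Tek, Etv2, Tal1, Lmo2, Gata1, Gata2 and Runx1, which mark these cells or control their formation, were followed through all groups of the study. They were chosen by gene symbol, with earlier results of these data known, and are 10 of the 55055 genes listed for every library. The study compared mouse stem cell models of the early embryo with and without the function of all Hox genes, by RNA sequencing of 22 libraries in 10 groups. Mouse embryonic stem (mES) cells, wild type or Hox-/-, were grown with leukaemia inhibitory factor, 3 µM CHIR99021 (a GSK-3 inhibitor that activates Wnt signalling) and 1 µM of the MEK inhibitor PD0325901, with 2 libraries of each genotype. Adherent cultures of the same 2 genotypes were driven towards endoderm with 100.0 ng/ml Activin A (a ligand of the Nodal pathway) and 3 µM CHIR99021, given after 24 h and again at 72 h, and were collected at 120 h as mixed cells, with 3 libraries of each genotype. Gastruloids, free-floating stem cell aggregates that form the germ layers and an axis, were collected at 96 h and at 120 h with 2 libraries in each group: wild-type gastruloids treated with Chiron (a short name of CHIR99021), and wild-type and Hox-/- gastruloids treated with Activin A. Neither the number of clones behind a genotype nor the origin of a group's libraries in separate cultures is given, so genotype and cell line cannot be told apart. P-values therefore measure the spread between libraries, which may be technical.

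Blood and endothelial cells arise from a common mesodermal progenitor marked by Kdr (also called Flk1), the main receptor of vascular endothelial growth factor. The ETS factor Etv2 switches on the programme of this progenitor, and the basic helix-loop-helix factor Tal1 with its partner Lmo2 and the GATA factors then drives blood formation, while Runx1 is needed for definitive blood stem cells to arise from endothelium. Endothelial cells are recognised by the junction proteins Cdh5 (VE-cadherin) and Pecam1 and by the angiopoietin receptor Tek (Tie2); Pecam1 is also present on undifferentiated mES cells and Runx1, Lmo2 and Gata2 also act outside blood.

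RefSeq promoter windows (GRCm38.p6, 250 bases before and 50 from the start site on) were found for 7 members, in 10 windows, and the parts before the start site are printed for the 4 members that the results turn on: Kdr, Etv2 and Tal1, which were highest in Activin A gastruloids at 120 h, and Runx1, which was highest in endoderm cultures. Each is read 5′ to 3′ on the strand of the gene, and capitals mark matches, on either strand, to the GATA motif (AGATAA or TGATAA or AGATAG or TGATAG), the ETS motif (CCGGAA or AGGAAG) and the E-box (CAGATG or CAGCTG), which the named factor families are known to prefer.
Kdr, chr5:75978456-75978705, minus strand, ETS and E-box matches: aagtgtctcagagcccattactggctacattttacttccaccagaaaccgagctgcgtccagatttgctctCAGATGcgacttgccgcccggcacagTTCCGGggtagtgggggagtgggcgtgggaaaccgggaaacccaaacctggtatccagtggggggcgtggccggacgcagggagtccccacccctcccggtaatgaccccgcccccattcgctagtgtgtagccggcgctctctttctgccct
Etv2, chr7:30635853-30636102, minus strand, ETS match: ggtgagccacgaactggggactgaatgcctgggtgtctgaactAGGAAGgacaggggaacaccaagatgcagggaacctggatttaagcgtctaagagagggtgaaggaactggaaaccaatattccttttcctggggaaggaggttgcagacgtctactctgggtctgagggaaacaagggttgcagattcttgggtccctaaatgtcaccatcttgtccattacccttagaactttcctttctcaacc
Tal1, chr4:115056176-115056425, plus strand, GATA match: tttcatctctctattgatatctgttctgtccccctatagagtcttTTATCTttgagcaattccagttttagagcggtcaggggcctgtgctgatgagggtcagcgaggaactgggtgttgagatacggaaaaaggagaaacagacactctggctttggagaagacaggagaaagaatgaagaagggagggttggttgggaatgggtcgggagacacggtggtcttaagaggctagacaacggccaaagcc
Runx1, chr16:92826075-92826324, minus strand, ETS match: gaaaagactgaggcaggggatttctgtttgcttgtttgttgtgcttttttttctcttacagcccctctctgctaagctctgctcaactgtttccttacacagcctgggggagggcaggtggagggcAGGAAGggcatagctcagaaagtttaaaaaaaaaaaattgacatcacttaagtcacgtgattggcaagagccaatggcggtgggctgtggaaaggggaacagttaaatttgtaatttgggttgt
Over the full windows of 300 bases, 2 of the 10 member windows held a GATA match, 5 an ETS match, 3 an E-box match and 1 a match to the Runx motif TGTGGT. Of the 32851 windows of the same length in the genome-wide table, 29.8% held a GATA match, 45.2% an ETS match, 30.6% an E-box match and 16.8% a Runx match. A match describes the letters of the window only. Pecam1, Cdh5 and Lmo2 had no entry. Tal1 and Runx1 each had another window that is not printed. That of Tal1 (chr4:115057561-115057860) held no match to any of these motifs. That of Runx1 (chr16:92697280-92697579) held an ETS match (CCGGAA).

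Libraries held between 9108085 and 28819301 counts. Gastruloid depth went with time, since the 96 h libraries held 14953662 to 28819301 counts and the 120 h libraries 9108085 to 11930416. The 39 Hox genes summed to 624.8 to 2192 CPM (read counts scaled to the library total) in wild-type gastruloids and to 63.8 to 103.8 CPM in Hox-/- gastruloids. In endoderm cultures the sums were 828.5 to 876.7 CPM in wild type and 22.5 to 28.6 CPM in Hox-/-, and in mES cells 30.4 to 35.7 and 0.448 to 1.34 CPM, so that each library followed its genotype label. No group is labelled as endothelium or blood, and several markers of the mature cells were near 0. The globins Hbb-bh1 and Hba-x did not pass 0.0867 CPM in the mean of any group, and the blood cell surface marker Ptprc did not pass 0.0416 CPM. The endothelial marker Emcn was highest in wild-type Activin A gastruloids at 120 h, at 0.709 ± 0.239 CPM (SD, n = 2). Some other endothelial markers reached more. Group means of Cdh5 and Egfl7 reached 2.61 and 41.8 CPM in Hox-/- Activin A gastruloids at 120 h, and that of Pecam1 reached 177 CPM in Hox-/- mES cells. The blood marker Itga2b stood apart from the other blood markers, as given below.

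**Figure D1:**
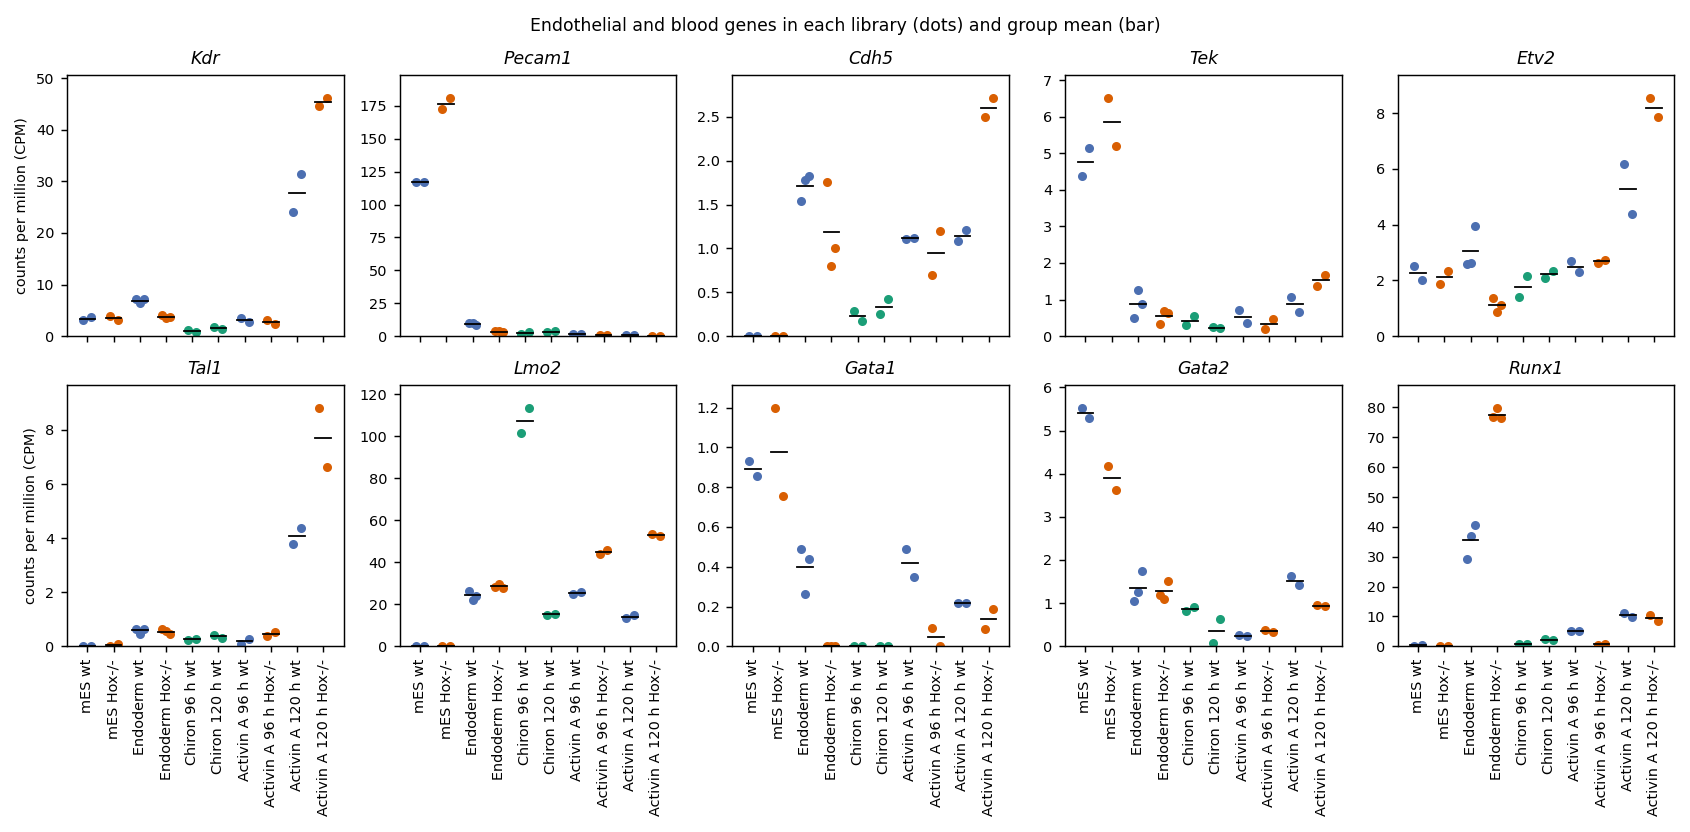
Level of each of the 10 genes in every library, in CPM on a linear axis, by group (points are libraries and bars group means). Kdr, Etv2 and Tal1 were highest in the Hox-/- Activin A gastruloids at 120 h, Runx1 in Hox-/- endoderm cultures, Lmo2 in Chiron gastruloids at 96 h, and Pecam1, Tek, Gata1 and Gata2 in mES cells.

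The members differed widely in level. They were compared per length, as FPKM (fragments scaled to transcript length and library depth). FPKM were tabled separately for mES cells, for endoderm cultures, for Activin A gastruloids of both genotypes, and for wild-type gastruloids of both treatments. Activin A values were taken from the set of both genotypes, so those of Chiron gastruloids were tabled apart from them. Pecam1 was the most abundant member in mES cells, at 32.9 ± 0.377 FPKM in wild type and 49.6 ± 1.81 in Hox-/- (SD, n = 2 each). Lmo2 was the most abundant in each of the 8 other groups, from 8.5 ± 0.628 FPKM in wild-type Activin A gastruloids at 120 h to 69 ± 5.66 in Chiron gastruloids at 96 h. Runx1 reached 13.9 ± 0.176 FPKM in Hox-/- endoderm cultures (SD, n = 3), while Etv2 and Kdr reached 6.63 ± 0.405 and 6.49 ± 0.109 FPKM in Hox-/- Activin A gastruloids at 120 h (SD, n = 2). Cdh5, the gene most restricted to endothelium among the 10, did not pass 0.588 ± 0.0207 FPKM in any group mean. The members therefore did not share a single pattern: between their highest and lowest group, means in CPM differed 489-fold for Runx1, 440-fold for Lmo2, 393-fold for Pecam1, 46.2-fold for Kdr, 25.3-fold for Tek, 21.6-fold for Gata2 and 7.32-fold for Etv2. The lowest group means of Runx1, Lmo2, Pecam1, Tek and Gata2 were 0.159, 0.244, 0.449, 0.232 and 0.25 CPM. Their folds therefore rest on few counts, and the order of Runx1, Lmo2 and Pecam1 by fold is not settled. In these bulk libraries, fewer cells that express a gene and less RNA per cell cannot be told apart.

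Kdr (ENSMUSG00000062960, chr5:75932827-75978458, minus strand in mm10), the receptor that marks the common progenitor, was low in every culture except Activin A gastruloids at 120 h. It measured 24.1 and 31.4 CPM in the wild-type libraries of that group and 44.7 and 46.1 in the Hox-/- libraries. In endoderm cultures it measured 7.14, 6.33 and 7.22 CPM in wild type and 4.09, 3.57 and 3.72 in Hox-/-, and in mES cells 3.05 and 3.65 in wild type and 3.96 and 3.11 in Hox-/-. Activin A gastruloids at 96 h held 3.6 and 2.75 CPM of Kdr in wild type and 3.09 and 2.41 in Hox-/-, and Chiron gastruloids held 1.17 and 0.798 at 96 h and 1.84 and 1.38 at 120 h. The top 3 groups and the bottom 2 did not overlap with their neighbours in this order, whereas the 5 groups between 2.41 and 4.09 CPM ran into one another. The other receptor, Tek (chr4:94739289-94874976, plus strand), had its highest values in mES cells, 4.38 and 5.13 CPM in wild type and 6.5 and 5.21 in Hox-/-, and then in Hox-/- Activin A gastruloids at 120 h, at 1.38 and 1.68 CPM. In the 7 remaining groups Tek lay between 0.187 and 1.25 CPM, in an order in which neighbours overlapped.

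The adhesion molecules of endothelial junctions, Pecam1 and Cdh5, had different patterns. Pecam1 (chr11:106654217-106750628, minus strand) measured 117 and 117 CPM in wild-type and 173 and 181 in Hox-/- mES cells, far above all other groups, and 10.1, 9.63 and 8.46 CPM in wild-type against 3.58, 4.0 and 2.96 in Hox-/- endoderm cultures. In Chiron gastruloids it measured 1.8 and 2.91 CPM at 96 h and 2.85 and 3.82 at 120 h. With Activin A it measured 1.96 and 1.4 CPM at 96 h and 1.19 and 1.1 at 120 h in wild type, and 0.561 and 0.602 and 0.431 and 0.468 at these times in Hox-/-. In these gastruloids both Hox-/- groups lay below both wild-type groups. Cdh5 (chr8:104101625-104144511, plus strand) had no count in any of the 4 mES libraries, where 3 counts over a group would be 0.107 CPM in wild type. It was highest in Hox-/- Activin A gastruloids at 120 h, at 2.5 and 2.71 CPM, and measured 1.08 and 1.21 in their wild-type counterparts. At 96 h it measured 1.11 and 1.12 CPM in wild type and 0.701 and 1.2 in Hox-/-, and Chiron gastruloids held 0.173 to 0.424. Endoderm cultures held 1.54, 1.78 and 1.82 CPM in wild type and 1.76, 0.80 and 1.01 in Hox-/-. Its highest group stood clear of the next, and the following 5 groups overlapped from one to the next. Counts of Cdh5 are uncertain, because the gene Gm29682 lies antisense to it and the use of strand in counting is not given in the sources used here. The same holds for Lmo2 and the opposite-strand gene 4931422A03Rik, and for Runx1 and the antisense gene Gm26626.

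Among the transcription factors that start the programme, Etv2 (chr7:30633616-30635852, minus strand) and Tal1 (chr4:115056426-115071755, plus strand) had the same 2 highest groups as Kdr. Etv2 measured 8.53 and 7.86 CPM in Hox-/- and 6.16 and 4.39 in wild-type Activin A gastruloids at 120 h, with no overlap. Elsewhere Etv2 lay between 1.41 and 3.94 CPM, except in Hox-/- endoderm cultures, at 1.36, 0.861 and 1.13 CPM, which were the lowest group and stood clear of the others. Tal1 measured 8.79 and 6.64 CPM in Hox-/- and 3.78 and 4.39 in wild-type Activin A gastruloids at 120 h. It did not pass 0.657 CPM in any other library and had 1 count in the 4 mES libraries together.

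Lmo2 (chr2:103957986-103981878, plus strand), the bridging partner of Tal1 that also acts outside blood, was close to 0 in mES cells, at 0.332 and 0.155 CPM in wild type and 0.224 and 0.336 in Hox-/-, and abundant in every other group. It measured 101 and 113 CPM in Chiron gastruloids at 96 h and 15.1 and 15.5 at 120 h. In wild-type Activin A gastruloids it measured 24.9 and 25.8 at 96 h and 13.3 and 14.8 at 120 h, against 44 and 45.9 and 53.5 and 52.4 in Hox-/-, so that both Hox-/- groups lay above both wild-type groups. The endoderm cultures held 26.4, 22.2 and 24.1 CPM in wild type and 28.2, 29.8 and 27.7 in Hox-/-. Runx1 (chr16:92601466-92826149, minus strand) was also close to 0 in mES cells, at 0.266 and 0.389 CPM in wild type and 0.149 and 0.168 in Hox-/-, and reached 29.2, 36.9 and 40.5 CPM in wild-type and 76.7, 79.7 and 76.3 in Hox-/- endoderm cultures. In Activin A gastruloids, Runx1 measured 5.02 and 5.12 CPM in wild type and 0.561 and 0.736 in Hox-/- at 96 h, and 11.2 and 9.77 and 10.4 and 8.51 at 120 h, where the genotypes overlapped. Chiron gastruloids held 0.827 and 0.659 CPM at 96 h and 2.43 and 2.01 at 120 h.

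The GATA factors were highest in mES cells, where Tal1 was at or near 0. Gata1 (chrX:7959260-7978071, minus strand), the master regulator of red cells, measured 0.93 and 0.855 CPM in wild-type and 1.2 and 0.756 in Hox-/- mES cells, 0.487, 0.264 and 0.438 in wild-type endoderm cultures and 0 in all 3 Hox-/- endoderm libraries and all 4 Chiron libraries. Activin A gastruloids held 0 to 0.489 CPM of Gata1. Gata2 (chr6:88193891-88207032, plus strand), which acts in blood stem cells and also in other tissues, measured 5.51 and 5.29 CPM in wild-type and 4.18 and 3.61 in Hox-/- mES cells. Endoderm cultures held 1.05, 1.25 and 1.75 CPM of Gata2 in wild type and 1.19, 1.11 and 1.51 in Hox-/-. Activin A gastruloids held 0.233 to 0.374 CPM at 96 h, and at 120 h 1.62 and 1.43 in wild type and 0.948 and 0.935 in Hox-/-. In Chiron gastruloids Gata2 measured 0.827 and 0.902 CPM at 96 h and 0.0838 and 0.636 at 120 h, where the 2 libraries held 1 and 6 counts.

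In undifferentiated cells the genotypes differed in 1 of the 6 members tested. Pecam1 rose 1.51-fold in Hox-/- mES cells, from 117 ± 0.0837 to 177 ± 5.62 CPM (SD, n = 2 each; edgeR quasi-likelihood test, log2 fold change 0.59, SE 0.05, adjusted p = 2.6e-11). Of all genes tested in this comparison, 23.2% were called in either direction at an adjusted p under 0.05, and 12.4% were called higher. Gata2 was not called, with a log2 fold change of -0.47 (SE 0.20, adjusted p = 0.0803 in edgeR), and Tek, Kdr, Etv2 and Gata1 had adjusted p-values between 0.241 and 0.858. Pecam1 was not called when log2(FPKM + 1) was tested with limma, at a difference of 0.58 (adjusted p = 0.0582). Over all its alternatives the adjusted p was 1.63e-35 to 0.0582.

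Other genes of the pathway were compared between the genotypes of mES cells in the same way. Of 6 VEGF and angiopoietin genes tested, Vegfa, the main ligand of Kdr, rose by 0.41 on the log2 scale and its receptor Nrp2 was lower, at -0.27. Of 6 surface and junction genes Vwf rose by 0.35 and Eng was lower, at -0.20. None of 4 endothelial transcription factors, 7 blood transcription factors and 2 blood cell products was called by edgeR, DESeq2 or limma, and 2 of them, both blood transcription factors, had an unadjusted p under 0.05. Of 4 early mesoderm genes 3 were lower, Bmp4 at -1.50, Eomes at -0.81 and T (Brachyury) at -1.51. By limma on FPKM none of these VEGF and mesoderm genes was called. The pluripotency markers summed to 6281 to 6326 CPM in wild-type and 6149 to 6175 CPM in Hox-/- mES cells.

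In endoderm cultures Hox-/- cells had less Kdr, Pecam1 and Etv2 and more Runx1 and Lmo2 than wild-type cells. Of the 8 members tested, 2 rose and 3 fell, where 46.2% of all genes tested were called, 23.1% in each direction. Runx1 rose 2.19-fold, from 35.5 ± 5.77 to 77.6 ± 1.82 CPM (SD, n = 3 each; edgeR, log2 fold change 1.13, SE 0.09, adjusted p = 1.4e-07). Lmo2 rose 1.19-fold, from 24.2 ± 2.07 to 28.6 ± 1.1 CPM (edgeR, log2 fold change 0.25, SE 0.08, adjusted p = 0.0166). Pecam1 fell 2.65-fold, from 9.38 ± 0.826 to 3.51 ± 0.522 CPM (edgeR, log2 fold change -1.40, SE 0.14, adjusted p = 2.33e-06). Etv2 fell 2.69-fold, from 3.06 ± 0.764 to 1.12 ± 0.252 CPM (edgeR, log2 fold change -1.43, SE 0.26, adjusted p = 0.000539). Kdr fell 1.80-fold, from 6.9 ± 0.492 to 3.79 ± 0.269 CPM (edgeR, log2 fold change -0.85, SE 0.14, adjusted p = 0.00023). The libraries of the 2 genotypes did not overlap for any of these 5 genes. Gata1 was not tested by the model because of its low counts; its 3 Hox-/- libraries held no count, which puts it at least 6.44-fold lower than in wild type (floor of 3 counts over the group). Cdh5, Tek and Gata2 were not called, with log2 fold changes of -0.51, -0.70 and -0.09 (adjusted p = 0.189, 0.177 and 0.822 in edgeR). The Lmo2 call was lost without wild-type replicate 2 (adjusted p = 0.105) or without Hox-/- replicate 2 (adjusted p = 0.0542). It was also lost with limma (adjusted p = 0.243 and 0.245 at pseudocounts 0.1 and 1), and its alternatives gave an adjusted p of 0.00977 to 0.245. Cdh5 was called lower without Hox-/- replicate 1 (-0.91, adjusted p = 0.0269, against 0.0269 to 0.495 over its alternatives).

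Other genes of the pathway in endoderm cultures moved in both directions. Of 11 tested genes of vascular endothelial growth factor (VEGF) and angiopoietin signalling, 2 rose and 6 fell, at a median log2 fold change of -0.39 against a median near 0 for all genes tested. Flt1, a VEGF receptor, fell by 1.76 and Nrp1, its co-receptor, by 1.22 on the log2 scale, while the related co-receptor Nrp2 rose by 0.87. Of 12 tested genes of the endothelial surface and junctions, 1 rose (Eng) and 7 fell, among them Egfl7, an endothelial secreted factor, by 0.44, and Dll4, a Notch ligand of arteries, by 2.44. Of 9 endothelial transcription factors tested, 2 rose (Ets1 and Ets2) and 4 fell, led by Sox17, by 2.32, which also marks endoderm. Of 5 further blood transcription factors tested 2 rose and 2 fell, and of 4 blood cell products and receptors tested 1 fell, the stem cell factor receptor Kit, by 0.35. Of 9 early mesoderm genes tested Bmp4, T and Foxf1 rose and 4 fell. Endoderm markers fell in 9 of the 9 tested, from sums of 1095 to 1112 CPM in wild type to 538 to 593 CPM in Hox-/-, and pluripotency markers summed to 841 to 978 and 259 to 273 CPM. Their part in the members' changes was not tested.

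**Figure D2:**
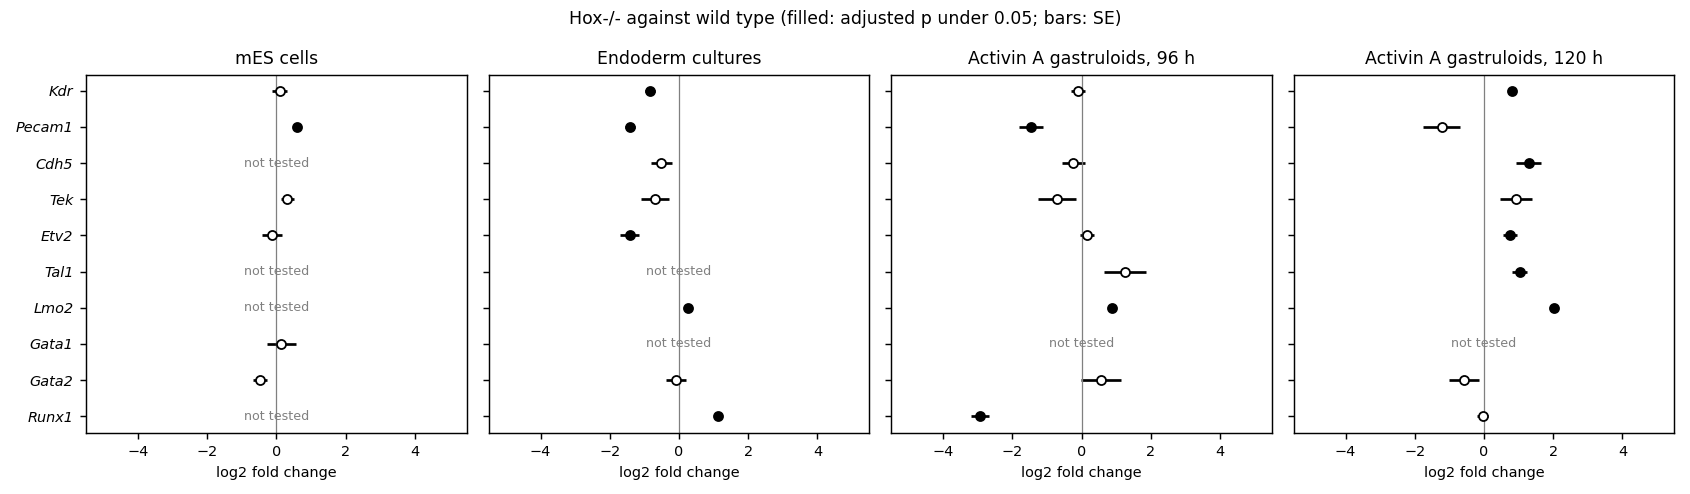
Log2 fold change of Hox-/- against wild type for each tested member in mES cells, endoderm cultures and Activin A gastruloids at 96 h and 120 h (points are edgeR estimates, bars their standard errors, filled symbols adjusted p under 0.05). At 120 h Lmo2, Kdr, Tal1, Etv2 and Cdh5 lie above 0, whereas Kdr, Etv2 and Pecam1 lie below 0 in endoderm cultures.

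In Activin A gastruloids at 96 h the genotypes differed in 3 of the 9 members tested, where 38.9% of all genes tested were called, 22.2% higher and 16.7% lower. Runx1 fell 7.64-fold in Hox-/- gastruloids, from 5.07 ± 0.0665 to 0.648 ± 0.123 CPM (SD, n = 2 each; edgeR, log2 fold change -2.93, SE 0.25, adjusted p = 6.35e-14). Pecam1 fell 2.74-fold, from 1.68 ± 0.396 to 0.581 ± 0.0288 CPM (edgeR, log2 fold change -1.46, SE 0.35, adjusted p = 0.000592). Lmo2 rose 1.83-fold, from 25.4 ± 0.65 to 45 ± 1.34 CPM (edgeR, log2 fold change 0.87, SE 0.06, adjusted p = 1.14e-16). Kdr, Etv2 and Cdh5 had log2 fold changes of -0.11, 0.16 and -0.24 (adjusted p = 0.688, 0.599 and 0.604 in edgeR), and Tal1, at few counts, 1.26 (adjusted p = 0.0901). Gata1 held 2 counts over both Hox-/- libraries, a ratio of 0.133 to wild type with a 95% counting interval from 0.0151 to 0.547. The Pecam1 call was lost when libraries were thinned to the smallest (log2 fold change -1.15, adjusted p = 0.0683), where Runx1 kept its call at -2.23. It was also lost with limma on log2(FPKM + 0.1) (adjusted p = 0.0702), and alternatives gave Pecam1 an adjusted p of 7.68e-05 to 0.0702. Tal1 was called higher without wild-type replicate 2, at 2.25 (adjusted p = 0.0426, against 0.0426 to 0.633 over its alternatives).

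In these 96 h gastruloids, 5 of 12 VEGF and angiopoietin genes fell and 0 rose by edgeR, DESeq2 or limma (1 rose at an unadjusted p under 0.05), with Flt1 lower by 4.30, Nrp1 by 2.84 and the lymphatic ligand Vegfc by 1.36 on the log2 scale. Of 12 tested surface and junction genes 4 fell and 0 rose, also by DESeq2, limma or an unadjusted p under 0.05, among them Vwf (von Willebrand factor), at -1.83, and the endothelial phosphatase Ptprb, which had 11 counts in wild type and 0 in Hox-/-. Of 11 endothelial transcription factors 3 rose (Ets1, Ets2 and Fli1) and 4 fell, with Sox17 at -4.79 and Hhex, a factor shared with endoderm, at -2.77. Of 8 blood transcription factors 2 rose and 1 fell, and of 4 blood cell products and receptors 1 rose (Epor, the erythropoietin receptor) and 2 fell (Kit and Cd34). Of 10 early mesoderm genes 4 rose and 4 fell. Endoderm markers, of which 8 of 11 fell, summed to 1295 to 1507 CPM in wild type and 345 to 351 CPM in Hox-/-. Their part in these differences was not tested.

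At 120 h, Hox-/- Activin A gastruloids had more Lmo2, Kdr, Tal1, Etv2 and Cdh5 than wild type. Of the 9 members tested 5 rose and 0 fell by edgeR, where 50.4% of all genes tested were called, 24.9% higher and 25.5% lower. None fell by DESeq2 or limma either, and 1, Pecam1, was lower at an unadjusted p under 0.05. The median log2 fold change of the 9 members was 0.82, against -0.02 for all genes tested. Lmo2 rose 4.07-fold, from 14.1 ± 1.08 to 53 ± 0.822 CPM (SD, n = 2 each; edgeR, log2 fold change 2.02, SE 0.09, adjusted p = 9.45e-25). Kdr rose 1.77-fold, from 27.8 ± 5.16 to 45.4 ± 1.03 CPM (edgeR, log2 fold change 0.82, SE 0.10, adjusted p = 3.18e-10). Tal1 rose 2.05-fold, from 4.09 ± 0.43 to 7.72 ± 1.52 CPM (edgeR, log2 fold change 1.03, SE 0.22, adjusted p = 9.25e-05). Etv2 rose 1.68-fold, from 5.28 ± 1.25 to 8.19 ± 0.48 CPM (edgeR, log2 fold change 0.75, SE 0.20, adjusted p = 0.00118). Cdh5 rose 2.45-fold, from 1.14 ± 0.0896 to 2.61 ± 0.15 CPM (edgeR, log2 fold change 1.29, SE 0.36, adjusted p = 0.00253). Runx1 had a log2 fold change of -0.03 (SE 0.16, adjusted p = 0.883 in edgeR), Pecam1 of -1.22 (adjusted p = 0.0561), Tek of 0.91 (adjusted p = 0.0972) and Gata2 of -0.58 (adjusted p = 0.268). The Etv2 call was lost without wild-type replicate 2 (0.52, adjusted p = 0.0682), and those of Kdr and Tal1 when log2(FPKM + 0.1) was tested with limma (adjusted p = 0.0524 and 0.0523). Pecam1 was called lower when scaled by total counts alone (adjusted p = 0.0358) or when only these 2 groups were fitted (adjusted p = 0.0366). Alternatives gave an adjusted p of 0.000213 to 0.0682 for Etv2, 2.24e-19 to 0.0524 for Kdr, 1.7e-06 to 0.0523 for Tal1 and 0.0358 to 0.191 for Pecam1.

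The wider programme at 120 h moved in both directions. Of 12 VEGF and angiopoietin genes 3 rose (Nrp2, Vegfd and the Tek relative Tie1) and 6 fell, at a median log2 fold change of -0.55, with the ligand Vegfa at -1.2, Flt1 at -3.15 and Nrp1 at -1.23. Of 11 endothelial transcription factors 6 rose and 4 fell, at a median of 0.86. Ets2 rose by 1.91, and the forkhead factors Foxc2 and Foxc1 by 1.24 and 1.07, while Sox17 fell by 3.8 and Hhex by 2.79. Of 12 surface and junction genes 3 rose and 3 fell, at a median of 0.06. The guidance receptor Robo4 rose by 2.14, the junction protein Esam by 0.94 and the TGF-beta co-receptor Eng by 0.87. Of 8 further blood transcription factors 3 rose (Tcf3, Zfpm1 and Cbfb) and 4 fell, at a median of -0.47, and of 4 blood cell products and receptors 2 fell, Kit by 1.84 and Cd34 by 1.87. Of 10 early mesoderm genes 5 rose, among them Mesp1, a factor of nascent mesoderm, by 3.12, and 3 fell.

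Markers of other cell types moved with the genotype at 120 h. Presomitic and somitic mesoderm markers rose in 8 of 8, from sums of 548 to 557 CPM in wild type to 1449.9 to 1456 CPM in Hox-/-, and endoderm markers fell in 11 of 11, from 1781 to 1843 CPM to 105 to 112 CPM. The part of these shifts in the rise of Kdr, Tal1, Etv2, Cdh5 and Lmo2 was not tested. The 7 endothelial markers, which include Cdh5 and Pecam1, summed to 45.7 to 46.4 CPM in wild type and 49 to 50.3 CPM in Hox-/-, of which the secreted factor Egfl7 made up the largest share, at 40.5 ± 0.447 and 41.8 ± 1.45 CPM. The defining endothelial genes were low in both genotypes, with Tie1 at 0.76 ± 0.454 and 2.43 ± 0.14 CPM and Erg at 0.327 ± 0.0036 and 0.79 ± 0.589 CPM. The 7 blood markers, Itga2b apart, were at or near 0.

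**Figure D3:**
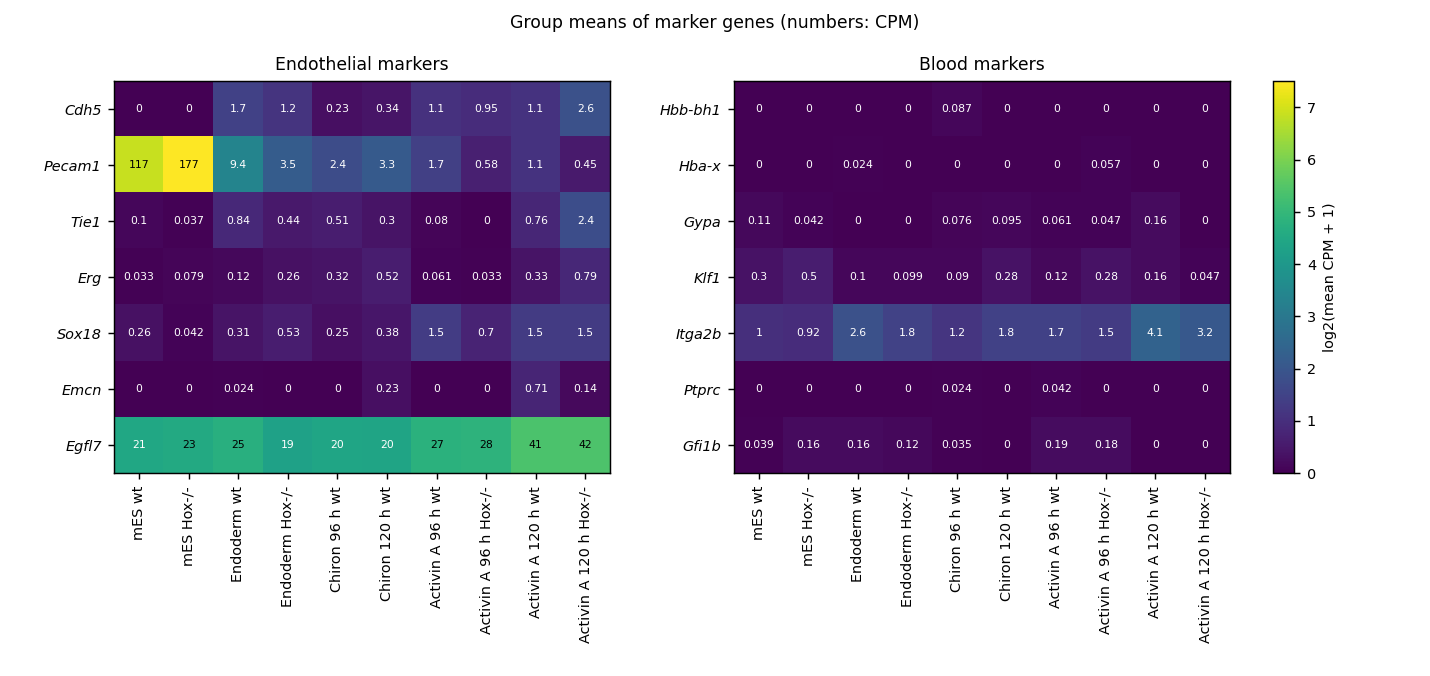
Group means in CPM of 7 endothelial and 7 blood markers, written in each cell, with colour on a log2 scale. Pecam1 stands out in mES cells and Egfl7 is present in every group, whereas Cdh5, Tie1, Erg and Emcn do not pass 2.61 CPM and the globins are at or near 0.

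The genotype effect at 120 h minus that at 96 h was tested directly in Activin A gastruloids, and it differed for 4 of the 9 members, all towards a higher effect at 120 h (0 lower by edgeR, DESeq2, limma or an unadjusted p under 0.05), where 38.9% of all genes tested were called, 18.7% higher and 20.2% lower. Runx1 had the largest difference of the 9, 2.90 on the log2 scale (SE 0.31, adjusted p = 7.75e-11 in edgeR), and its genotypes were 7.64-fold apart at 96 h and overlapped at 120 h. Lmo2 differed by 1.15 on the log2 scale (SE 0.12, adjusted p = 1.05e-11 in edgeR). Kdr differed by 0.94 on the log2 scale (SE 0.22, adjusted p = 0.000606 in edgeR) and Cdh5 by 1.53 on the log2 scale (SE 0.50, adjusted p = 0.0117 in edgeR). Tek, Etv2 and Tal1 were not called (differences 1.62, 0.59 and -0.23, adjusted p = 0.0663, 0.105 and 0.799 in edgeR). The Cdh5 call was lost without Hox-/- replicate 1 of 96 h (difference 1.13, adjusted p = 0.107), with DESeq2 (adjusted p = 0.0978) and on thinned libraries (adjusted p = 0.177). That of Kdr was lost with limma on log2(FPKM + 0.1) (adjusted p = 0.0915). Runx1 kept its call at 2.17 on thinned libraries. Alternatives gave an adjusted p of 0.00434 to 0.177 for Cdh5 and 2.36e-05 to 0.0915 for Kdr. Tek was called without replicate 2 of 96 h of Hox-/- (2.30, adjusted p = 0.0324) or of wild type (2.07, adjusted p = 0.0338), against 0.0324 to 0.387 over its alternatives. Etv2 was called without wild-type replicate 1 of 120 h (0.87, adjusted p = 0.0397), against 0.0397 to 0.417.

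The change with time was followed within each kind of gastruloid, where depth went with time, so libraries thinned to the smallest were also tested. In wild-type Activin A gastruloids, 5 of 9 members rose from 96 h to 120 h and 1 fell, where 74.9% of all genes tested were called, 37.2% higher and 37.8% lower. Kdr rose 8.34-fold (edgeR, log2 fold change 3.06, SE 0.14, adjusted p = 1.58e-25), Tal1 20.01-fold (edgeR, log2 fold change 4.32, SE 0.40, adjusted p = 1e-13) and Gata2 5.68-fold (edgeR, log2 fold change 2.50, SE 0.47, adjusted p = 7.46e-06). Etv2 rose 2.01-fold and Runx1 1.97-fold (adjusted p = 5.22e-05 and 2.95e-07 in edgeR). Lmo2 fell 1.90-fold (edgeR, log2 fold change -0.93, SE 0.10, adjusted p = 3.36e-12). Cdh5, Pecam1 and Tek had log2 fold changes of -0.04, -0.61 and 0.67 and were not called. Without wild-type replicate 2 of 96 h the Tal1 change was 5.31 on the log2 scale. On thinned libraries the 6 calls held.

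In Hox-/- Activin A gastruloids 8 of 9 members rose over the same interval and 0 fell by edgeR, DESeq2, limma or an unadjusted p under 0.05, where 72.4% of all genes tested were called, 34.9% higher and 37.6% lower. Tal1 rose 17.1-fold (edgeR, log2 fold change 4.10, SE 0.30, adjusted p = 3.1e-17), Kdr 16.0-fold (edgeR, log2 fold change 4.0, SE 0.13, adjusted p = 1.86e-31) and Runx1 14.7-fold (edgeR, log2 fold change 3.87, SE 0.25, adjusted p = 1.65e-19). Tek rose 4.87-fold, Etv2 3.03-fold, Cdh5 2.81-fold, Gata2 2.57-fold and Lmo2 1.17-fold (adjusted p = 5.86e-05, 3.93e-10, 7.01e-05, 0.0145 and 0.00175 in edgeR). Lmo2 thus fell with time in wild type and rose in Hox-/-, and the test of that difference is the genotype by time term given above. The Lmo2 rise was not called with DESeq2 (adjusted p = 0.0524) or on thinned libraries (adjusted p = 0.0585). That of Gata2 was lost when any 1 of the 4 Hox-/- libraries was left out (adjusted p from 0.0569 to 0.075), with DESeq2 (adjusted p = 0.0776), with limma (adjusted p = 0.125 and 0.414 at pseudocounts 0.1 and 1) and on thinned libraries (adjusted p = 0.0594). The Tek change was 1.67 and 2.96 without replicates 1 and 2 of 96 h. Alternatives gave an adjusted p of 0.000831 to 0.0585 for Lmo2 and 0.0103 to 0.414 for Gata2.

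**Figure D4:**
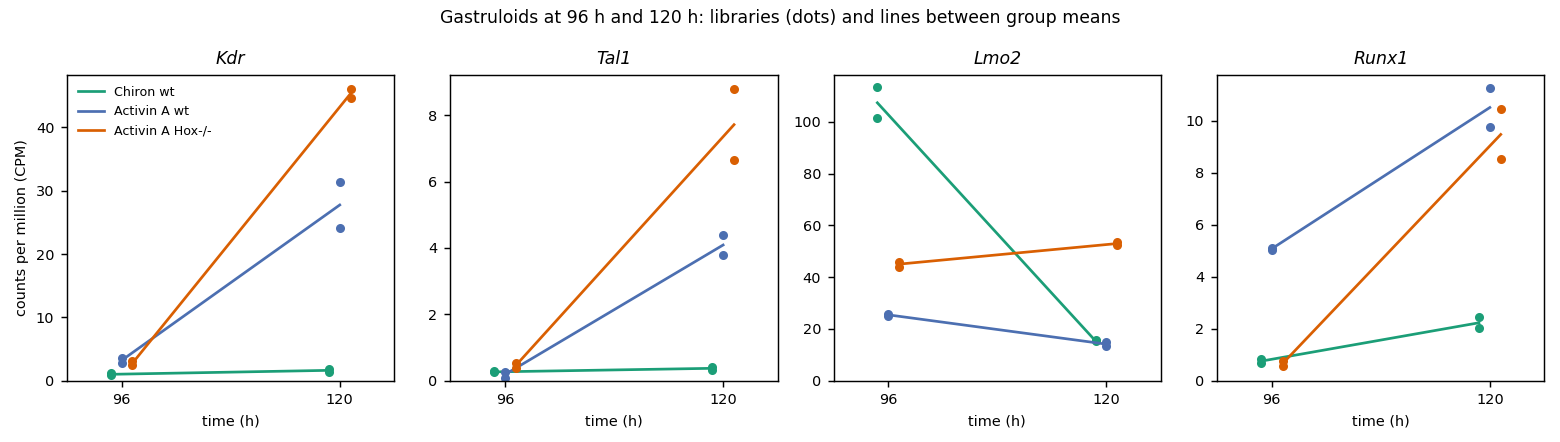
Level of Kdr, Tal1, Lmo2 and Runx1, in CPM on a linear axis, at 96 h and 120 h in the 3 kinds of gastruloid (points are libraries and lines join group means). Kdr and Tal1 rise with time in both Activin A genotypes and stay low with Chiron, and Lmo2 falls steeply with Chiron.

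In wild-type Chiron gastruloids the same interval changed 3 of 9 members, 1 higher and 2 lower, where 61.7% of all genes tested were called, 28.5% higher and 33.2% lower. Lmo2 fell 7.57-fold, from 107 ± 8.37 to 15.3 ± 0.278 CPM (SD, n = 2 each; edgeR, log2 fold change -2.92, SE 0.08, adjusted p = 1.38e-18). Runx1 rose 2.84-fold, from 0.743 ± 0.119 to 2.22 ± 0.294 CPM (edgeR, log2 fold change 1.51, SE 0.31, adjusted p = 0.000192). Gata2 fell by edgeR (log2 fold change -1.49, SE 0.56, adjusted p = 0.0248), a call that was lost without replicate 1 of 120 h (log2 fold change -0.57, adjusted p = 0.447) or replicate 2 of 96 h (adjusted p = 0.0827). Without replicate 2 of 120 h the Gata2 change was -3.38, and its adjusted p over all alternatives was 0.00455 to 0.447. It was also lost with DESeq2 (adjusted p = 0.124), with limma and on thinned libraries (-1.18, adjusted p = 0.215). The Runx1 call was lost with limma on log2(FPKM + 1) (adjusted p = 0.0811, against 1.88e-05 to 0.0811 over its alternatives). Kdr, Etv2, Tal1, Cdh5, Tek and Pecam1 were not called. Kdr was called higher without replicate 1 of 96 h (adjusted p = 0.0408, against 0.0408 to 0.583) and Pecam1 without replicate 2 of 96 h (adjusted p = 0.0304, against 0.0304 to 0.778).

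The ligand Vegfa rose with time in all 3 kinds of gastruloid, by 2.76 in wild-type Activin A, 1.44 in Hox-/- Activin A and 1.42 in Chiron gastruloids on the log2 scale. Of 12 VEGF and angiopoietin genes 7 rose and 1 fell (Flt1) in wild-type Activin A gastruloids, 11 rose and 0 fell in Hox-/- (also 0 by DESeq2, limma or an unadjusted p under 0.05), and 5 rose and 1 fell (Flt4) with Chiron. Of 12 surface and junction genes 6, 8 and 3 rose in these 3 settings and 3, 3 and 2 fell. Of 11 endothelial transcription factors 5, 8 and 3 rose and 3, 2 and 4 fell, with Foxc2 rising by 7.54 in wild-type and 8.44 in Hox-/- Activin A gastruloids. Of 8 blood transcription factors 4, 4 and 2 rose and 3 fell in each setting. The early platelet and progenitor marker Itga2b rose with Activin A in both genotypes, by 1.07 in Hox-/-, whereas Epor, the erythropoietin receptor, fell in both. Of 10 early mesoderm genes 6, 6 and 9 fell, where 37.8%, 37.6% and 33.2% of all genes tested fell. In Hox-/- Activin A gastruloids Foxf1, Mesp1, Pdgfra and Hand1 rose, by 4.40, 3.24, 2.21 and 1.62. These counts stand side by side and their differences were not tested.

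Markers of other cell types also moved with time. Presomitic and somitic markers rose in 6 of 8 and fell in 2 in wild-type Activin A gastruloids, from sums of 175 to 185 CPM at 96 h to 548 to 557 CPM. In Hox-/- 7 rose and 1 fell, from 218 to 244 CPM at 96 h to 1449.9 to 1456 CPM, with Meox1, a somite factor, up by 8.41 on the log2 scale. With Chiron 3 rose and 5 fell. Pluripotency markers fell in 8 of 9 in wild-type Activin A gastruloids, from 1658 to 1679.6 CPM to 93.4 to 94 CPM. In Hox-/- 7 fell and 1 rose, from 1161 to 1165 CPM to 35 to 35.4 CPM, and with Chiron 4 fell and 3 rose. Of 11 endoderm markers 6 rose and 4 fell in wild-type Activin A gastruloids, 2 rose and 7 fell in Hox-/-, and 1 rose and 5 fell with Chiron. The part of these shifts in the members' changes with time was not tested.

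The effect of the treatment was read in wild-type gastruloids, Activin A against Chiron. At 96 h, Activin A gastruloids had more Runx1, Kdr and Cdh5 and less Lmo2, Gata2 and Pecam1. This was 3 higher and 3 lower of 9 tested, where 61.6% of all genes tested were called, 31.3% higher and 30.2% lower. Runx1 was 6.59-fold higher, at 5.07 ± 0.0665 against 0.743 ± 0.119 CPM (edgeR, log2 fold change 2.72, SE 0.22, adjusted p = 2.26e-10). Kdr was 3.15-fold higher, at 3.18 ± 0.60 against 0.983 ± 0.262 CPM (edgeR, log2 fold change 1.65, SE 0.26, adjusted p = 8.43e-06). Cdh5 was 4.68-fold higher, at 1.12 ± 0.00914 against 0.233 ± 0.0838 CPM (edgeR, log2 fold change 2.23, SE 0.41, adjusted p = 6.52e-05). Lmo2 was 4.42-fold lower (edgeR, log2 fold change -2.14, SE 0.07, adjusted p = 2.02e-18), Gata2 3.58-fold lower (edgeR, log2 fold change -1.84, SE 0.46, adjusted p = 0.00149) and Pecam1 1.52-fold lower (edgeR, log2 fold change -0.61, SE 0.25, adjusted p = 0.0415). Gata1 had no count with Chiron and was at least 6.81-fold higher with Activin A (floor of 3 counts over the group). The Kdr call was lost with limma on log2(FPKM + 1) (0.37, adjusted p = 0.0641). The Gata2 call was lost on thinned libraries (adjusted p = 0.243) and with limma (adjusted p = 0.118 and 0.202 at pseudocounts 0.1 and 1). That of Pecam1 was lost with DESeq2 (adjusted p = 0.263), limma, total counts alone or only these 2 groups fitted, on thinned libraries, and without Activin A replicate 2 (adjusted p = 0.386) or Chiron replicate 2 (adjusted p = 0.7). Alternatives gave an adjusted p of 1.59e-11 to 0.0641 for Kdr, 0.000178 to 0.243 for Gata2 and 0.00433 to 0.7 for Pecam1. The Cdh5 difference was 3.66 on thinned libraries. Etv2, not called, was called higher without Chiron replicate 2 (0.78, adjusted p = 0.0255, against 0.0255 to 0.549 over its alternatives).

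The wider pathway at 96 h held calls in both directions. Of 12 VEGF and angiopoietin genes 7 were higher with Activin A, Flt1 by 6.15 on the log2 scale among them, and 3 were lower (Nrp2, Pgf and Tie1). Of 12 surface and junction genes 7 were higher, among them Plvap, a protein of endothelial diaphragms, by 1.99, and 1 was lower, Ptprb. Of 11 endothelial transcription factors 4 were higher, Sox17 (also an endoderm marker) by 5.30 among them, and 4 were lower. Of 8 blood transcription factors 2 were higher (Ikzf1 and Myb) and 5 lower. Of 5 blood cell products and receptors Kit and Epor were higher and Alas2, an enzyme of haem synthesis, was lower. Of 10 early mesoderm genes 6 were higher, Eomes by 6.84 among them, and 4 lower. Endoderm markers were higher in 9 of 11 and presomitic and somitic markers lower in 8 of 8. Their part in the members' differences was not tested.

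At 120 h the receptor, the early transcription factors and the junction gene Cdh5 were all higher with Activin A than with Chiron. Of 9 members tested 7 were higher and 1 lower, where 41.9% of all genes tested were called, 20.3% higher and 21.6% lower. Kdr was 16.3-fold higher, at 27.8 ± 5.16 against 1.61 ± 0.329 CPM (SD, n = 2 each; edgeR, log2 fold change 4.03, SE 0.22, adjusted p = 5.59e-13). Tal1 was 10.3-fold higher, at 4.09 ± 0.43 against 0.369 ± 0.0714 CPM (edgeR, log2 fold change 3.37, SE 0.43, adjusted p = 9e-07). Runx1 was 4.51-fold higher, at 10.5 ± 1.04 against 2.22 ± 0.294 CPM (edgeR, log2 fold change 2.17, SE 0.22, adjusted p = 2.13e-08). Etv2 was 2.31-fold higher, at 5.28 ± 1.25 against 2.21 ± 0.168 CPM (edgeR, log2 fold change 1.21, SE 0.28, adjusted p = 0.00123). Gata2 and Cdh5 were 4.40-fold and 3.31-fold higher (adjusted p = 0.00451 and 0.0168 in edgeR). Tek was higher at a ratio of 3.72, with a 95% counting interval from 1.30 to 13 (adjusted p = 0.0454 in edgeR). Pecam1 was 2.96-fold lower (edgeR, log2 fold change -1.57, SE 0.38, adjusted p = 0.0017). Lmo2 was not called (-0.17, SE 0.12, adjusted p = 0.288 in edgeR). The Tek call was lost when any 1 of the 4 libraries of 120 h was left out (adjusted p from 0.0576 to 0.283), with DESeq2 (adjusted p = 0.153) or with limma. That of Cdh5 was lost without Activin A replicate 1 or 2 (adjusted p = 0.053 and 0.0887) or Chiron replicate 1 (adjusted p = 0.16) and with DESeq2 (adjusted p = 0.0989). The Gata2 call was lost without Chiron replicate 1 (log2 fold change 1.21, adjusted p = 0.139), and its change was 4.01 without Chiron replicate 2. It was also lost with limma (adjusted p = 0.0712 and 0.101 at pseudocounts 0.1 and 1). Alternatives gave an adjusted p of 0.039 to 0.283 for Tek, 0.00247 to 0.16 for Cdh5 and 0.000702 to 0.139 for Gata2.

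Some ligands and receptors of the pathway were also higher with Activin A at 120 h. Of 12 VEGF and angiopoietin genes 7 were higher and 0 lower by edgeR, DESeq2, limma or an unadjusted p under 0.05, at a median log2 fold change of 1.09 against -0.01 for all genes tested. Flt1 differed by 5.58, the ligand Vegfa by 1.81 and Nrp1 by 1.02. Of 12 surface and junction genes 7 were higher, among them Egfl7 (0.98), Vwf and Dll4, and 1 was lower, Ptprb. Of 11 endothelial transcription factors 4 were higher (Sox17, Hhex and Sox18 among them) and 3 lower (Ets1, Ets2 and Klf2). Of 8 blood transcription factors 4 were higher and 3 lower, and of 5 blood cell products and receptors 3 were higher (Kit, Epor and the integrin Itga2b). Of 10 early mesoderm genes 7 were higher, among them the apelin receptor Aplnr (2.12), and 1 was lower, Msgn1. Endoderm markers were higher in 11 of 11 and presomitic and somitic markers lower in 7 of 8. Their part in the members' differences was not tested.

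The treatment effect at 120 h minus that at 96 h differed for 4 of 9 members, all towards a higher effect at 120 h (0 lower by edgeR, DESeq2, limma or an unadjusted p under 0.05), where 39.6% of all genes tested were called, 21.7% higher and 18.0% lower. The differences were 2.37 on the log2 scale (SE 0.40, adjusted p = 5.24e-05 in edgeR) for Kdr and 3.92 on the log2 scale (SE 0.79, adjusted p = 0.000372 in edgeR) for Tal1. They were 1.97 on the log2 scale (SE 0.14, adjusted p = 1.11e-10 in edgeR) for Lmo2 and 3.98 on the log2 scale (SE 0.74, adjusted p = 0.000147 in edgeR) for Gata2. Runx1 and Etv2 were not called (-0.55 and 0.83, adjusted p = 0.217 and 0.0799 in edgeR). On thinned libraries the Tal1 difference was 1.26 (adjusted p = 0.685) and without Activin A replicate 2 of 96 h it was 4.90, with an adjusted p of 8.93e-06 to 0.685 over all alternatives. That of Gata2 was 3.06 and 5.86 without Chiron replicates 1 and 2 of 120 h, and its call was lost with limma on log2(FPKM + 1) (adjusted p = 0.0673, against 2.84e-07 to 0.0673 over its alternatives). Etv2 was called without Activin A replicate 2 of 120 h (adjusted p = 0.044) or Chiron replicate 1 of 96 h (adjusted p = 0.0197), against 0.0197 to 0.42 over its alternatives. Pecam1, at -0.96, was called without Chiron replicate 2 of 96 h (-1.40, adjusted p = 0.0159, against 0.0159 to 0.293).

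**Figure D5:**
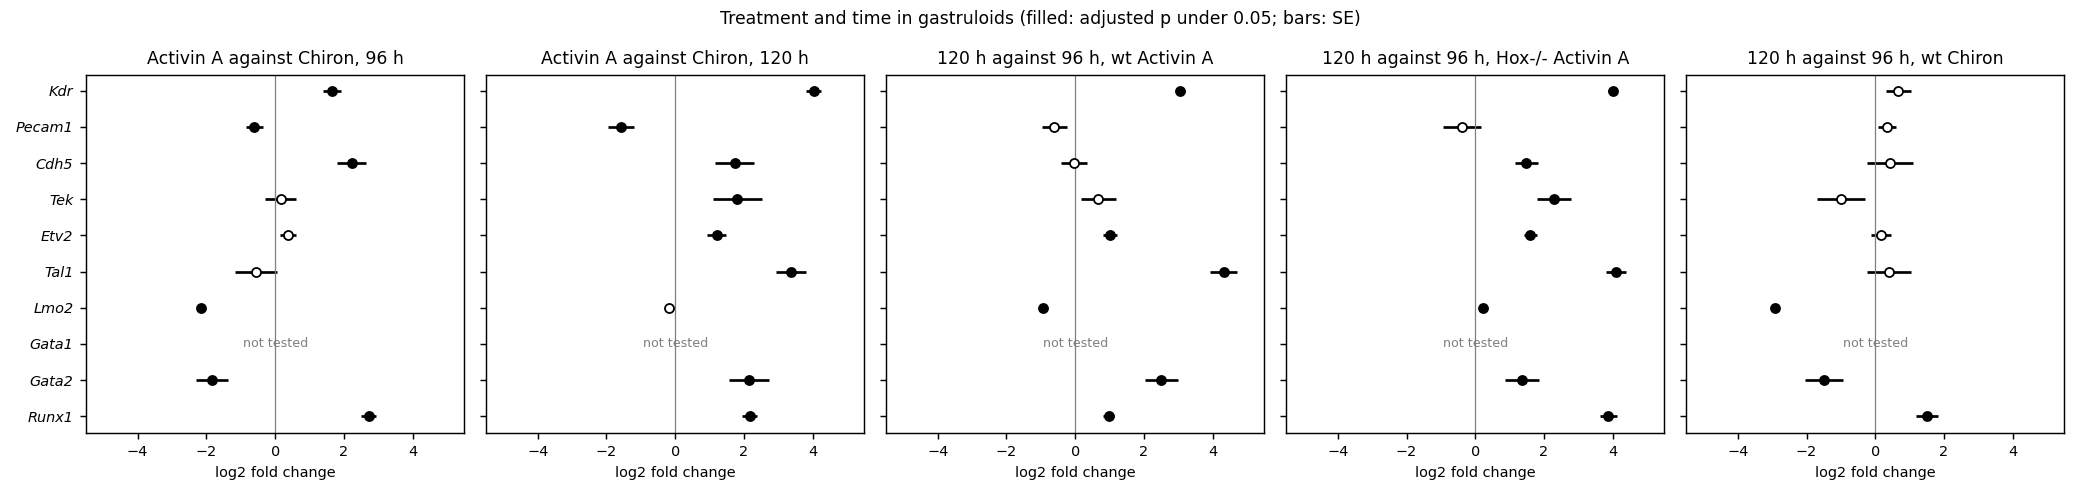
Log2 fold changes of the members in gastruloids for time (120 h against 96 h) and treatment (Activin A against Chiron, wild type); points are edgeR estimates, bars their standard errors, and filled symbols have an adjusted p under 0.05. Kdr and Tal1 have the largest treatment differences at 120 h, at 4.03 and 3.37.

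Between mES cells and endoderm cultures some members rose and others fell, as did genes in general. In wild type 4 of 9 members rose and 4 fell, where 79.9% of all genes tested were called, 41.6% higher and 38.3% lower. Runx1 rose 99.5-fold (edgeR, log2 fold change 6.64, SE 0.24, adjusted p = 1.24e-15), Lmo2 86-fold (edgeR, log2 fold change 6.43, SE 0.23, adjusted p = 7.69e-16) and Kdr 1.90-fold (edgeR, log2 fold change 0.93, SE 0.17, adjusted p = 6.78e-05), and Cdh5, without a count in mES cells, was at least 16.0-fold higher. Pecam1 fell 13.5-fold (edgeR, log2 fold change -3.76, SE 0.08, adjusted p = 1.95e-19), Tek 5.70-fold (edgeR, log2 fold change -2.51, SE 0.29, adjusted p = 1.1e-07) and Gata2 4.29-fold (edgeR, log2 fold change -2.10, SE 0.23, adjusted p = 5.8e-08). Gata1 fell as well (edgeR, log2 fold change -1.30, SE 0.47, adjusted p = 0.0169), a call lost without endoderm replicate 2 (adjusted p = 0.0645) or mES replicate 1 or 2 (adjusted p = 0.102 and 0.054) and with DESeq2 (adjusted p = 0.0854). Etv2 was not called (0.30, adjusted p = 0.299 in edgeR). Without mES replicate 1 the Lmo2 change was 7.10, and alternatives gave Gata1 an adjusted p of 0.00899 to 0.102. Tal1 was not tested by the model and was at least 5.42-fold higher in endoderm cultures.

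In Hox-/- cells 3 of 9 members rose with differentiation and 5 fell, where 80.6% of all genes tested were called, 42.7% higher and 37.9% lower. Runx1 rose, at a ratio of 490.3 with a 95% counting interval from 191 to 1800.3 (adjusted p = 1.16e-17 in edgeR). Lmo2 rose 94.7-fold (edgeR, log2 fold change 6.57, SE 0.22, adjusted p = 2.78e-16). Cdh5 was at least 10.2-fold higher. Pecam1 fell 53.0-fold (edgeR, log2 fold change -5.73, SE 0.08, adjusted p = 1.04e-21), Tek 11.3-fold (edgeR, log2 fold change -3.49, SE 0.30, adjusted p = 1.06e-09) and Etv2 1.97-fold (edgeR, log2 fold change -0.98, SE 0.31, adjusted p = 0.00744). Gata1 was at least 16.4-fold lower. Gata2 also fell (edgeR, log2 fold change -1.70, SE 0.24, adjusted p = 2.36e-06). Kdr had a log2 fold change of 0.01 (SE 0.19, adjusted p = 0.953 in edgeR). The Etv2 call was lost without mES replicate 2 (adjusted p = 0.0788, against 0.00245 to 0.0788 over all alternatives).

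The VEGF, endothelial transcription factor and early mesoderm lists mostly rose with differentiation. Of 12 VEGF and angiopoietin genes 11 rose in wild type and 12 in Hox-/-, and 0 fell in either by edgeR, DESeq2 or an unadjusted p under 0.05. Vegfa rose by 1.82 in wild type and 1.05 in Hox-/- on the log2 scale. Of 10 endothelial transcription factors 8 rose in either genotype, Ets1 by 5.69 and 6.30, and Klf2 and Hhex fell. Of 13 surface and junction genes 6 rose and 3 fell in either genotype. Of 7 blood transcription factors 2 rose and 5 fell in wild type and 3 rose and 3 fell in Hox-/-. Among 4 blood cell products and receptors Epor and Itga2b rose and Kit fell in both. All 9 early mesoderm genes tested rose in both genotypes. All 9 pluripotency markers fell in both genotypes, to summed levels of 841 to 978 CPM in wild-type and 259 to 273 CPM in Hox-/- endoderm cultures, and their part in the fall of Pecam1, Tek and Gata2 was not tested.

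The genotype effect in endoderm cultures minus that in mES cells was called for 4 of 9 members, all lower, where 24.1% of all genes tested were called, 11.6% higher and 12.5% lower. By edgeR or DESeq2 0 members were higher, and 1 was at an unadjusted p under 0.05. Pecam1, higher in Hox-/- mES cells and lower in Hox-/- endoderm, differed by -1.97 on the log2 scale (SE 0.13, adjusted p = 2.02e-09 in edgeR). Kdr differed by -0.91 on the log2 scale (SE 0.26, adjusted p = 0.0138 in edgeR) and Etv2 by -1.28 on the log2 scale (SE 0.41, adjusted p = 0.0269 in edgeR). Gata1 was also called (adjusted p = 0.00221 in edgeR), but its value depends on the prior count because the Hox-/- endoderm libraries held no count. Runx1 was not called (2.15, adjusted p = 0.0945 in edgeR). The Kdr call was lost without replicate 1 of wild-type or of Hox-/- mES cells (adjusted p = 0.0747 and 0.114). That of Etv2 was lost with DESeq2 (adjusted p = 0.0619) and without replicate 2 of Hox-/- endoderm, replicate 3 of wild-type endoderm or replicate 2 of either mES group (adjusted p from 0.0579 to 0.128). Alternatives gave an adjusted p of 0.00425 to 0.114 for Kdr and 0.0116 to 0.128 for Etv2. Tek and Runx1 were called without wild-type endoderm replicates 1 and 3, respectively (adjusted p = 0.0471 and 0.0471), against 0.0471 to 0.424 and 0.0471 to 0.311 over their alternatives.

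Across all 22 libraries, members paired in a way that followed the cultures in which they were highest. On log2(CPM + 1), Pearson's r was 0.91 between Kdr and Tal1, 0.83 between Kdr and Etv2 and 0.82 between Etv2 and Tal1, against -0.27 between Kdr and Pecam1. Pecam1, Tek and Gata2, 3 of the members highest in mES cells, had r of 0.85 (Pecam1 and Tek), 0.85 (Pecam1 and Gata2) and 0.88 (Tek and Gata2), and Lmo2 ran opposite to Pecam1, at -0.89. Among the 13272 genes with a group mean of at least 5 CPM, the 3 closest to Kdr were Gata5, Osr1 and Fendrr (r = 0.91, 0.90 and 0.88), and the closest to Tal1 were Gata5, Osr1 and Lnpk (0.97, 0.97 and 0.94). Egfl7, Gata5 and Grin2c were closest to Etv2 (0.90, 0.85 and 0.84), Nog, Ripor1 and Pear1 to Runx1 (0.99, 0.97 and 0.97), and Lef1, Fbxw8 and Clic4 to Lmo2 (0.98, 0.97 and 0.97). Gtsf1l, Spp1 and Zfp936 were closest to Pecam1 (0.99 each), Arhgef15, Myom2 and Foxn2 to Tek (0.95 each), and Nid1, Lonrf1 and Susd2 to Gata2 (0.95, 0.95 and 0.94). Cdh5 and Gata1 were under that minimum in every group and have no such genes. These values describe the 22 libraries, which share 10 groups and differ in depth, so that they carry no test.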

How the data were processed

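Per the labels' protocols, libraries were made from polyadenylated RNA with a TruSeq Stranded mRNA kit. Per the submitters' processing notes, reads were processed with cutadapt 1.16, STAR and Cufflinks 2.2.1 on mm10; whether counting used the strand is not given in the sources used here. The authors deposited tables of raw read counts per gene and of FPKM values per gene, which were joined by gene identifier. The 4 wild-type Activin A libraries are in 2 of the count tables with identical counts and were used once.

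Counts were tested with edgeR 4.0.16 (quasi-likelihood, TMM scaling, R 4.3.3) across all genes passing its filter on low counts, with Benjamini-Hochberg adjustment over all of them and a threshold of 0.05. Gastruloids with Activin A were fitted together, as were wild-type gastruloids of both treatments, and mES and endoderm counts for differentiation. Comparisons of the 2 treatments and of the 2 genotypes at each time share the wild-type Activin A libraries. The 2 Chiron libraries of 96 h differed from each other beyond counting error, at a chi-square of 10.3 per degree of freedom. It was 3.63 for Chiron at 120 h, and 1.88 and 1.37 for wild-type Activin A at 96 h and 120 h. These 4 groups share an estimate of the spread in the treatment fit. DESeq2 1.42.0 and limma 3.58.1 (on log2 FPKM with a pseudocount) served as alternatives, with other scalings and filters, thinning to the smallest library, and each library left out. The fits were checked on simulated data with a common spread for all genes, in which 200 well-counted genes were changed. Of the calls, 3.85% to 7.41% were false. Genes with low counts were not among those changed, so the check does not cover low-count members. CPM were computed from total counts. Total counts of 9108085 to 28819301 per library set the precision, and intervals and floors (3 counts over a group) cover counting error only. All 10 members are described, and for the 8 with a group mean of at least 5 CPM the 3 genes most like each were named by Pearson's r over libraries. The members and lists were chosen with earlier results of these data known.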

Additional observations from a re-analysis of the deposited data

Results flagged for a closer look

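With Activin A, the effect of genotype at 120 h was unlike that at 96 h by a direct edgeR test for Kdr (0.94 on the log2 scale), Cdh5 (1.53), Lmo2 (1.15) and Runx1 (2.90). The treatment effect in wild-type gastruloids differed between the same times for Kdr (2.37), Tal1 (3.92), Lmo2 (1.97) and Gata2 (3.98). The genotype effect differed between endoderm cultures and mES cells for Kdr (-0.91), Pecam1 (-1.97), Etv2 (-1.28) and Gata1 (-5.59, a value set by the prior count, since the Hox-/- endoderm libraries held no count). As given above, some of these calls were lost in an alternative run. They were those of Kdr and Cdh5 for genotype by time and of Tal1 and Gata2 for treatment by time. Those of Kdr and Etv2 for endoderm cultures against mES cells were also lost.

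In other cases the genotype effect was called in opposite directions in different settings, with no overlap between the libraries of the genotypes in either. The difference between these effects was not tested. The genotype effect on Runx1 was lower in Activin A gastruloids at 96 h than in endoderm cultures by 4.06 (written as a difference, -4.06 on the log2 scale). That on Pecam1 in Activin A gastruloids at 96 h minus that in mES cells was -2.05. The genotype effects at 120 h in Activin A gastruloids minus those in endoderm cultures were 1.67 for Kdr and 2.17 for Etv2.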

How the results depend on the processing

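Of 122 tested pairs of a member and a comparison, 73 were called. These kept their sign in each alternative run that tested them. Of the 73, 49 were called in each such run that gave an adjusted p. A run could filter a member out or give it no adjusted p, so the number of runs differed between members. A further 12 were called in some alternative only, and of the 37 called in no fit 16 changed sign in some alternative. Members called fell from 1 to 0 (mES genotype), 6 to 3 (treatment at 96 h) and 3 to 1 (Chiron time) with limma on log2(FPKM + 1), from 5 to 3 (genotype at 120 h) with limma on log2(FPKM + 0.1), and from 4 to 2 (genotype by differentiation) with DESeq2. With at least 10 counts in each library, which leaves fewer members to test, the counts were 4 of 8 (treatment at 120 h), 2 of 4 (treatment by time), 5 of 8 (Hox-/- Activin A time) and 3 of 8 (differentiation in either genotype). Other causes were not tested. Leaving out 1 library at a time gave 1 called member in mES cells, 4 to 6 in endoderm cultures, 3 to 4 and 4 to 5 for genotype at 96 h and 120 h, 3 to 5 for genotype by time and for genotype by differentiation, 5 to 7 and 5 to 8 for treatment at 96 h and 120 h (5 without Chiron replicate 1 of 120 h), 4 to 5 for treatment by time, 6 and 7 to 8 for wild-type and Hox-/- Activin A time, 2 to 4 for Chiron time and 7 to 8 for differentiation in either genotype. With the replicate number as a block, the counts of called members were the same in all 14 comparisons (1 in mES cells, 5 in endoderm cultures, 3 and 5 for genotype in gastruloids). Between the endoderm genotypes the numbers did not pair the samples. Same-numbered endoderm libraries had correlations of their deviations of -0.070, 0.106 and -0.014, and not each correlated best with its own number. In groups of 2 libraries the deviations mirror each other, so this check cannot rank partners there. Over all genes, 3168 were called between genotypes in mES cells, against 1098 with DESeq2, 101 and 52 with limma (pseudocounts 0.1 and 1) and 1477 and 1690 without wild-type replicates 1 and 2. For genotype at 96 h 6546 were called, against 3647 with DESeq2 and 2731 and 3078 with limma, for genotype by time 6544 against 4349, and for treatment at 96 h 10655 against 6725, with limma (pseudocount 0.1). Of all calls for genotype at 96 h 57.0% were higher, against 42.5% with total counts, 43.9% without a filter and 29.7% and 31.4% with limma; at 120 h 49.4% against 34.6% with total counts, and for genotype by time 48.0% against 59.1% without a filter. Scaling by total counts moved the median of all genes by -0.11 (genotype at 120 h) and 0.12 (wild-type differentiation). Members under about 1 CPM rest on few counts. Thinning to the smallest library ended some calls, as given above, and other effects of depth were not tested.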
